A study of Mus musculus with 42 samples.

Results

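The kynurenine and NAD synthesis enzymes were followed here as 10 genes of the 40701 gene symbols measured, namely Afmid, Kmo, Kynu, Haao, Acmsd, Qprt, Naprt, Nampt, Nmnat1 and Nadsyn1. They were taken by symbol. All 10 symbols were found in the count table and in the table of RPKM (reads scaled to the length of the transcript and to the depth of the library), and all 10 passed the filter on low counts in every fit, so no member is missing from the counts below.

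The series profiled the kidney cortex of 12-week-old mice after unilateral ureteral obstruction (UUO), a surgical model in which a blocked ureter leads to tubular injury and fibrosis of that kidney. The states were the contralateral kidney, labelled as the healthy control, and the obstructed kidney on day 5 and on day 10. The labels do not give the day on which each contralateral kidney was taken, and that kidney comes from an animal that carries an obstruction. RNA of 2 kinds was sequenced, here called PT and Total after the labels. PT is proximal tubule RNA obtained by translating ribosome affinity purification (TRAP), in which ribosomes tagged with GFP in 1 cell type are pulled out of a lysate on anti-GFP beads together with the messages they carry. Total is labelled total kidney, and the protocol in the labels, which describes a bound and an unbound fraction, does not say whether Total is the unbound one. The mouse line, and the promoter that drives the tagged ribosome, are not named in the sources used here, and all groups share whatever that line carries. There were 12 groups, each with 3 libraries of females or 4 of males, so that every state had 7 libraries per fraction. The labels number the libraries without saying that a number is 1 animal, so the p-values below measure the spread between libraries.

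NAD, the electron carrier that sirtuins and poly-ADP-ribose polymerases also consume, is made from tryptophan along the kynurenine pathway, mainly in liver and in the proximal tubule of the kidney. After the ring of tryptophan is opened, Afmid frees kynurenine, Kmo hydroxylates it, Kynu cleaves off the side chain and Haao opens the ring again, giving an unstable semialdehyde that Acmsd diverts away from NAD and that otherwise closes to quinolinate, which Qprt carries into the NAD route. Naprt and Nampt start the routes from nicotinate and from nicotinamide, and Nmnat1 and Nadsyn1 complete the dinucleotide.

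The libraries held 9.31 M to 43.6 M counted reads with a median of 18.5 M, and no library duplicated another. The sex labels were checked with the Y-linked genes Ddx3y, Uty, Eif2s3y and Kdm5d, which were between 5.50 and 103 CPM (counts scaled to library size) in the 24 male libraries and between 0 and 2.75 CPM in the 18 female ones. Xist, also looked at, overlapped between the sexes, with 0.0659 to 20.2 CPM in female and 0 to 0.215 CPM in male libraries. The PT label was checked with 10 proximal tubule markers, none of which was at 0. Their summed level in contralateral kidneys was 11700 to 16400 CPM in PT and 6810 to 12300 CPM in Total. Their median log2 difference, PT over Total, was 0.618, and none was called higher in PT by the rule given below. A second list of 4 straight proximal tubule markers went the other way: 2 were called lower in PT and none higher. Its sum was 63.8 to 562 CPM in PT and 140 to 681 CPM in Total. Summed markers of the loop of Henle and distal tubule were 106 to 219 CPM in contralateral PT and 1910 to 5560 CPM in Total, and those of macrophages 9.83 to 16.2 CPM in PT and 62.8 to 151 CPM in Total. Lars2 ranged from 2621 to 43630 CPM among the PT libraries and from 1715 to 30810 CPM among the Total ones, and varied strongly within groups, so it was used as a technical covariate in the alternative fits.

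Haao and Acmsd, on either side of the unstable semialdehyde, were the most abundant of the 10 enzymes in the contralateral proximal tubule. Levels of different genes are compared on the deposited RPKM scale, which corrects for transcript length. In contralateral PT, Haao had the highest mean, 247 ± 90.5 RPKM (SD, n = 7), followed by Acmsd with 152 ± 23.5 RPKM. Haao was above Acmsd in 5 of 7 libraries, so these neighbours overlapped, whereas the Acmsd range lay wholly above that of the next gene, Qprt, with a mean of 57.9 ± 9.55 RPKM. Qprt, Kmo (52.9 ± 19.3), Naprt (38.1 ± 10.9) and Afmid (32.1 ± 11) each overlapped the next in order. Nampt (19.3 ± 6.97), Nmnat1 (15.5 ± 2.78), Kynu (5.51 ± 6.57) and Nadsyn1 (4.71 ± 1.47 RPKM) closed the order, and the SD of Kynu, larger than its mean, came from a gap between the sexes that is described below.

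Afmid, Kmo, Haao and Acmsd fell together after obstruction. In PT these 4 were 8.04-fold to 9.42-fold lower on day 5 than in contralateral kidneys, and 6.63-fold to 7.89-fold lower on day 10. The tests used edgeR's quasi-likelihood F test on the counts with the sexes averaged, and a gene was called when its Benjamini-Hochberg adjusted p over all tested genes was under 0.05 and it differed at least 2-fold. On day 5, 5 of the 10 members fell and none rose, against 12.4% of the 14932 tested genes that fell and 30.6% that were called in either direction. On day 10, 5 members fell and none rose, against 12% that fell and 31.7% called in either direction. Beside those 4, the member called was Nmnat1 on day 5 and Kynu on day 10. The call of Kynu is on the average over the sexes: its log2 fold change on day 10 was -2.41 in females and 0.24 in males. The members' median log2 fold change was -1.03 on both days, where that of all tested genes was 0.05 on each.

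Afmid, the formamidase that frees kynurenine, had 84.6, 151 and 271 CPM as lowest, median and highest of 7 contralateral PT libraries, 11.7, 13.3 and 29.4 CPM on day 5, and 8.74, 15.6 and 75 CPM on day 10. Neither day overlapped the contralateral range. The log2 fold change was -3.24 ± 0.34 (SE) on day 5 (adjusted p = 1.52e-07) and -2.95 ± 0.34 on day 10 (adjusted p = 3.87e-07). Kmo, the mitochondrial hydroxylase that turns kynurenine into hydroxykynurenine, had 199, 294 and 512 CPM in contralateral PT, 32.0, 40.0 and 58.2 CPM on day 5, and 22.8, 42.8 and 93.2 CPM on day 10. Here too every obstructed library lay below every contralateral one, with log2 fold changes of -3.01 ± 0.25 and -2.76 ± 0.25 (adjusted p = 3.13e-09 and 8.01e-09 on day 5 and day 10).

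Haao, the dioxygenase that opens hydroxyanthranilate, had 198, 457 and 688 CPM in contralateral PT, 22.9, 41.2 and 94.8 CPM on day 5, and 12.4, 56.1 and 265 CPM on day 10. The day 5 range lay below the contralateral one, while on day 10 a pair of male libraries, at 209 and 265 CPM, reached above the lowest contralateral library, a female one. Within each sex day 10 did not overlap contralateral PT. Male contralateral libraries had 306 to 688 CPM, and females had 198 to 494 CPM against 12.4 to 34.5 CPM on day 10. Its log2 fold change was -3.16 ± 0.36 on day 5 (adjusted p = 5.52e-07) and -2.73 ± 0.36 on day 10 (adjusted p = 2.46e-06). Acmsd, the decarboxylase that draws its substrate away from NAD, had 476, 598 and 708 CPM in contralateral PT, 41.5, 64.3 and 113 CPM on day 5, and 34.2, 71.5 and 164 CPM on day 10. The highest obstructed library thus stayed far below the lowest contralateral one, and the log2 fold changes were -3.05 ± 0.28 and -2.98 ± 0.27 (adjusted p = 1.21e-08 and 1.42e-08).

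These falls ran beside a fall of the cell type's own markers. All 10 proximal tubule markers fell in PT on day 5 and on day 10, with median log2 fold changes of -2.51 and -2.39, and their summed level was 1990 to 4200 CPM on day 5 and 1400 to 7610 CPM on day 10. The part of these markers in the members' falls was not tested, and in bulk RNA fewer cells of a type and less RNA of a gene in each cell cannot be told apart. The summed macrophage markers in PT were 103 to 183 CPM on day 5 and 141 to 352 CPM on day 10, and 10 of 11 rose on each day. Afmid, Kmo, Haao and Acmsd were called in PT on both days in every alternative fit that was run.

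**Figure D1:**
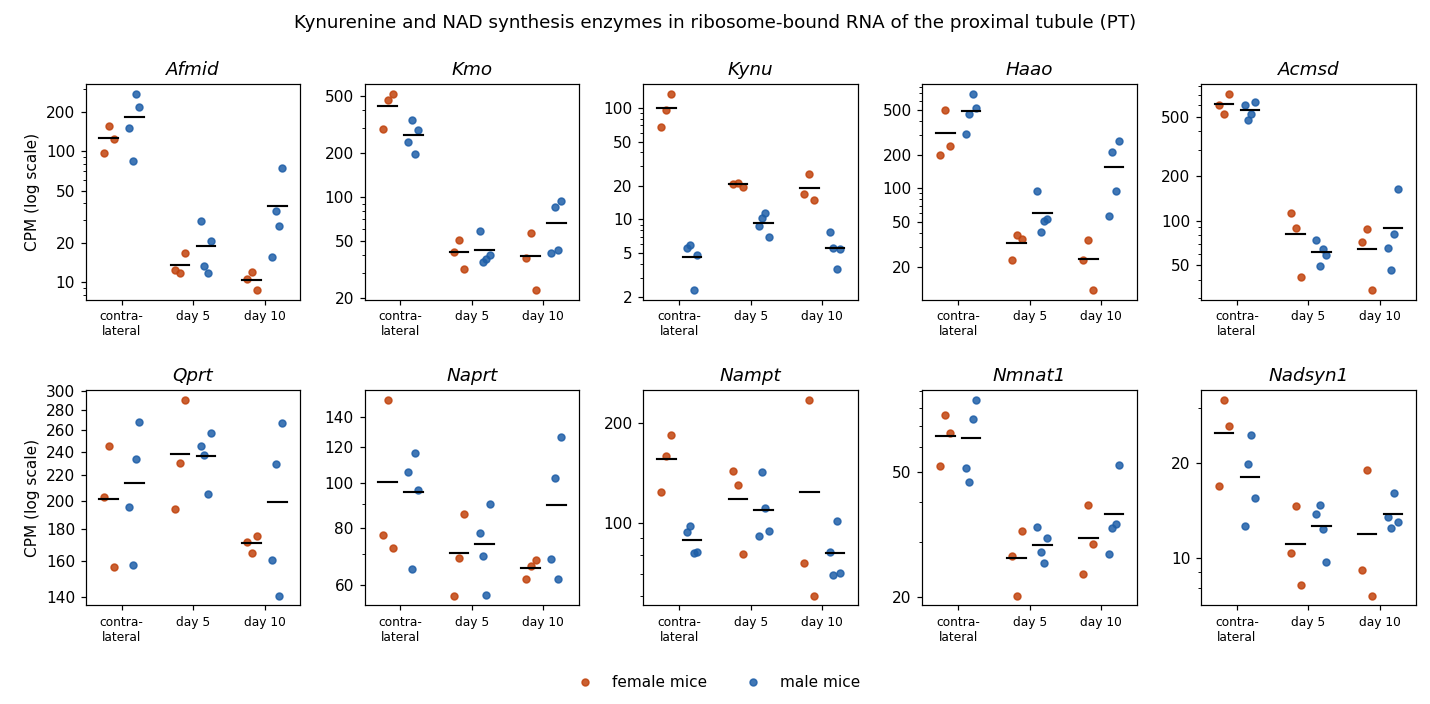
Each panel shows 1 enzyme in PT as CPM on a log scale for contralateral, day 5 and day 10 kidneys, with 1 point per library, female mice (orange) left of male mice (blue) and a bar at each mean. Afmid, Kmo, Haao and Acmsd are lower on both days in both sexes, Kynu is at 67.5 to 133 CPM in contralateral females and at 2.33 to 5.91 CPM in contralateral males, and the 3 states of Qprt and of Nampt overlap.

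Because Afmid, Kmo and Haao moved together while Qprt did not, the 250 bases upstream of their RefSeq start sites are shown side by side, 5′ to 3′ on the gene's own strand, in build GRCm38.p6. Capitals mark CG dinucleotides, the sites of DNA methylation, a feature looked at after the values were known. The windows are chr11:117825669-117825918 (plus strand) for Afmid, chr1:175631943-175632192 (plus) for Kmo, chr17:83846791-83847040 (minus) for Haao and chr7:127122030-127122279 (minus) for Qprt.
Afmid: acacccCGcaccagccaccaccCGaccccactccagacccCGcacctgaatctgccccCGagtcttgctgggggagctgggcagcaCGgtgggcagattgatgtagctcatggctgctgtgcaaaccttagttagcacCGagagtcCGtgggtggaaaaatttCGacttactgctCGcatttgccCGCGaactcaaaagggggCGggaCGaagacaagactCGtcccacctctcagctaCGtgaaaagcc
Kmo: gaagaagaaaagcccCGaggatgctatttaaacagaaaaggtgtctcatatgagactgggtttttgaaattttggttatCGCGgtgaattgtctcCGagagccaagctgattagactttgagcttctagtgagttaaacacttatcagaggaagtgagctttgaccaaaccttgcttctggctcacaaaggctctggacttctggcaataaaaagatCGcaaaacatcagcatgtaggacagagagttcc
Haao: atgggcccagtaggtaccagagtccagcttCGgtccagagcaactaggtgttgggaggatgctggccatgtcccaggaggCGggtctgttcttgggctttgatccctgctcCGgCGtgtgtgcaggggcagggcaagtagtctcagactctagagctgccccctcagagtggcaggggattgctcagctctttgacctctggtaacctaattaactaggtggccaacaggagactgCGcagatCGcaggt
Qprt: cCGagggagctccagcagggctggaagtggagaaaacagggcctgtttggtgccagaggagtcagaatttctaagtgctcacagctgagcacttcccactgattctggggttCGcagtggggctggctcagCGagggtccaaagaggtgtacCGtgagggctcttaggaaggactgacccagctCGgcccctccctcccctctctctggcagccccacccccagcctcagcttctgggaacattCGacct
The printed stretch held 15 CG in Afmid, 5 in Kmo, 6 in Haao and 6 in Qprt. In the full windows, from 250 bases before to 50 after the start, the counts were 18, 7, 10 and 7, where the median over 32851 mouse promoter windows was 7. Windows were found for 8 of the 10 members, of which Nadsyn1, Nmnat1 and Nampt held 27, 28 and 36 CG. Kmo, which fell, and Qprt, which was not called, held the same number. None of the members' 9 windows held any of 6 motifs searched on both strands: the DR1 site of nuclear receptors (in 0.0396% of all windows), the HNF4 site CAAAGTCCA (0.475%), the AP-1 site TGANTCA (7.81%), the NF-kB site (1.63%), the C/EBP site TTGCNNAA (10.8%) and the TATA box TATAAA (13.6%). A window that holds more than 1 of these counts for each. The absence of these letters from a window says nothing of the factors.

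Qprt, the enzyme that takes quinolinate into the NAD route, was not called in the obstructed proximal tubule on either day. It had 157, 203 and 268 CPM as lowest, median and highest in contralateral PT, 194, 237 and 291 CPM on day 5, and 141, 172 and 267 CPM on day 10. All 3 ranges overlapped. The log2 fold change was 0.19 ± 0.17 on day 5 (adjusted p = 0.359) and -0.20 ± 0.17 on day 10 (adjusted p = 0.336), and with scaling by library size alone the day 10 value was 0.22, on the other side of 0. On the RPKM scale Qprt became the highest of the 10 enzymes on day 5, with 91.4 ± 6.88 RPKM, above Haao (40.3 ± 18.9 RPKM) in 7 of 7 libraries without overlap. On day 10 Haao and Qprt stood at 73.9 ± 66.2 and 68.0 ± 8.92 RPKM and overlapped. RPKM is scaled by library size alone, which moved the median log2 fold change of all PT genes by 0.471 on day 5 and 0.438 on day 10. RPKM levels of 1 gene in different states carry that offset. As a share of the summed RPKM of the 10 enzymes, Qprt made up a median of 9.36% in contralateral PT (range 7.60% to 11.9%), 35.7% on day 5 (31.4% to 45%) and 25.3% on day 10 (19.4% to 41.6%). The median share of Haao was 40.9%, 14.3% and 21.7%, and that of Acmsd 22.9%, 8.85% and 11.1%, in the same order of states. These shares compare levels per length and are a description with no test.

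**Figure D2:**
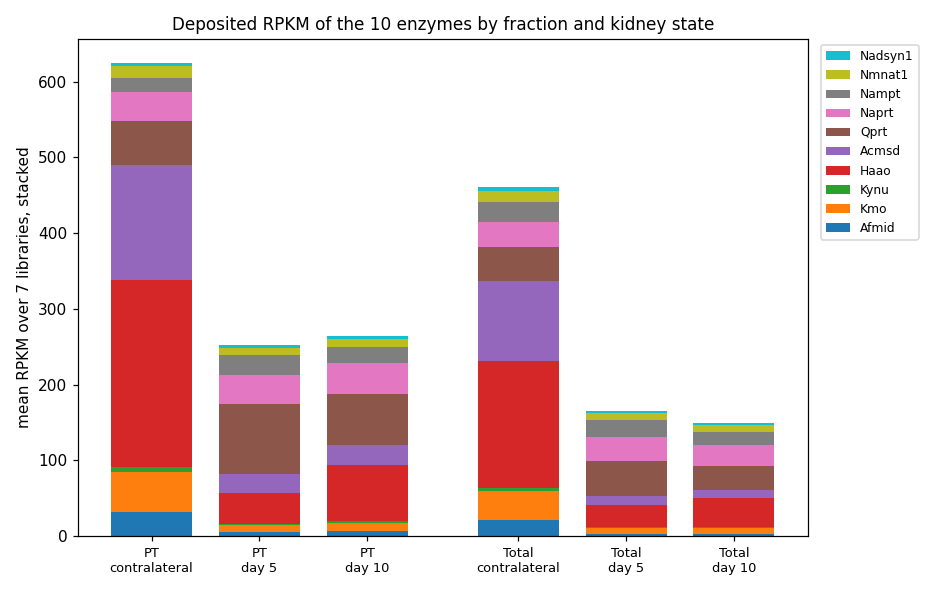
Stacked bars give the mean deposited RPKM of the 10 enzymes over 7 libraries for each fraction and kidney state. In PT the Haao segment is 247, 40.3 and 73.9 RPKM and the Acmsd segment 152, 25.7 and 26.5 RPKM over the 3 states in their order, while the Qprt segment is 57.9, 91.4 and 68.0 RPKM. RPKM is scaled by library size alone, and in the tests on counts Qprt was not called in PT on either day.

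The enzymes that start from nicotinate and nicotinamide also passed no 2-fold call in PT. Naprt, the nicotinate phosphoribosyltransferase, had 65.1, 96.9 and 152 CPM in contralateral PT, 56.9, 69.4 and 90.3 CPM on day 5, and 61.8, 68.0 and 126 CPM on day 10. Its log2 fold changes of -0.45 ± 0.21 and -0.39 ± 0.21 missed the threshold (adjusted p = 0.0694 and 0.112). Nampt, the enzyme that sets the pace of nicotinamide salvage, had 81.0, 98.1 and 184 CPM in contralateral PT, 80.2, 110 and 143 CPM on day 5, and 60.2, 75.7 and 235 CPM on day 10. The log2 fold change of Nampt was -0.06 ± 0.22 on day 5 and -0.28 ± 0.22 on day 10 (adjusted p = 0.841 and 0.304), and the 235 CPM belonged to female replicate 2, the other libraries of that day reaching at most 101 CPM. The sign of these small values depended on scaling: with library size alone Naprt was at 0.02 and 0.03 and Nampt at 0.43 and 0.19 on the 2 days.

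The enzymes at the end of the pathway were lower to a smaller extent. Nmnat1, the nuclear adenylyltransferase, had 46.2, 66.5 and 84.5 CPM in contralateral PT, 20.2, 27.7 and 33.3 CPM on day 5, and 23.7, 33.1 and 52.6 CPM on day 10. On day 5 Nmnat1 fell without overlap, with a log2 fold change of -1.21 ± 0.18 (adjusted p = 1.16e-05). On day 10 its value of -0.97 ± 0.18 (adjusted p = 0.000118) was just under the 2-fold limit, and leaving out 1 of 5 libraries carried it past the limit: without female contralateral replicate 1, female day 10 replicate 2, male contralateral replicate 1 or 2, or male day 10 replicate 4, it lay between -1.09 and -1.02. Nadsyn1, the synthetase that amidates the dinucleotide, had 12.6, 19.9 and 31.8 CPM in contralateral PT, 8.21, 12.3 and 14.7 CPM on day 5, and 7.56, 13 and 19.1 CPM on day 10. The log2 fold changes of Nadsyn1, -0.86 ± 0.21 and -0.77 ± 0.21, passed the adjusted p (0.00141 and 0.00309) but not 2-fold, and without female day 10 replicate 2 the day 10 value was -1.01, past it.

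Total kidney RNA gave the same 4 strong falls, and more members were called there. On day 5, 6 of 10 members fell, against 13.3% of 16782 tested genes that fell and 32.5% called in either direction, and on day 10, 7 of 10 fell, against 13.8% and 34.6%. None of the 10 rose on either day. These counts are on values averaged over the sexes, and both include Kynu. In females Kynu fell by log2 values of -2.92 on day 5 and -3.05 on day 10, while in males it was at 0.65 and 0.11, not called. The members' median log2 fold change was -1.19 on day 5 and -1.36 on day 10, where all genes had medians of 0.04 and 0.06. All 10 proximal tubule markers fell as well, with medians of -2.95 and -3.25, and 11 of 11 macrophage markers rose on each day. Their part in the members' falls was not tested.

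Acmsd had the largest change of the 10 in Total. It had 254, 322 and 393 CPM in contralateral Total, 15.6, 23.3 and 42.3 CPM on day 5, and 7.84, 18.7 and 60.9 CPM on day 10, with log2 fold changes of -3.60 ± 0.32 and -4.04 ± 0.33 (adjusted p = 1.06e-08 and 2.31e-09). Afmid fell by 3.14 and 3.40, Kmo by 2.84 and 2.99, and Haao by 2.91 and 2.82 on the log2 scale on day 5 and day 10, each with an adjusted p of at most 1.16e-06 and no overlap with the contralateral range. Nmnat1 fell on both days (-1.25 ± 0.14 each) and Nadsyn1 on day 10 (-1.26 ± 0.17, adjusted p = 1.36e-06). Nadsyn1 on day 5, at -0.94 ± 0.17, stayed under 2-fold, but was at -1.0 without male day 5 replicate 1.

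Nampt and Qprt, not called in PT, were lower in Total without reaching 2-fold. Nampt had 109, 118 and 164 CPM in contralateral Total, 49.3, 85.6 and 111 CPM on day 5, and 43.4, 65.8 and 95.4 CPM on day 10, when its range no longer overlapped the contralateral one. The log2 fold change of Nampt was -0.75 ± 0.14 on day 5 (adjusted p = 8.00e-05) and -0.995 ± 0.14 on day 10 (adjusted p = 1.92e-06). With the replicate number as a block the day 10 value of Nampt was -1.0 and past 2-fold, which made 8 members called. With 6 libraries, left out 1 at a time, Nampt also passed 2-fold on day 10 (lowest value -1.08): female contralateral replicate 1, female day 10 replicates 1 and 2, male contralateral replicates 2 and 3, and male day 10 replicate 3. Qprt had 103, 117 and 173 CPM in contralateral Total, 84.5, 93.2 and 140 CPM on day 5, and 46.5, 72.5 and 100.4 CPM on day 10. The log2 fold change of Qprt was -0.37 ± 0.17 on day 5 (adjusted p = 0.0568) and -0.84 ± 0.17 on day 10 (adjusted p = 0.000138), and without female day 10 replicate 2 the day 10 value was -1.07 and called. Naprt was at -0.51 ± 0.19 and -0.68 ± 0.19 (adjusted p = 0.0216 and 0.00326).

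**Figure D3:**
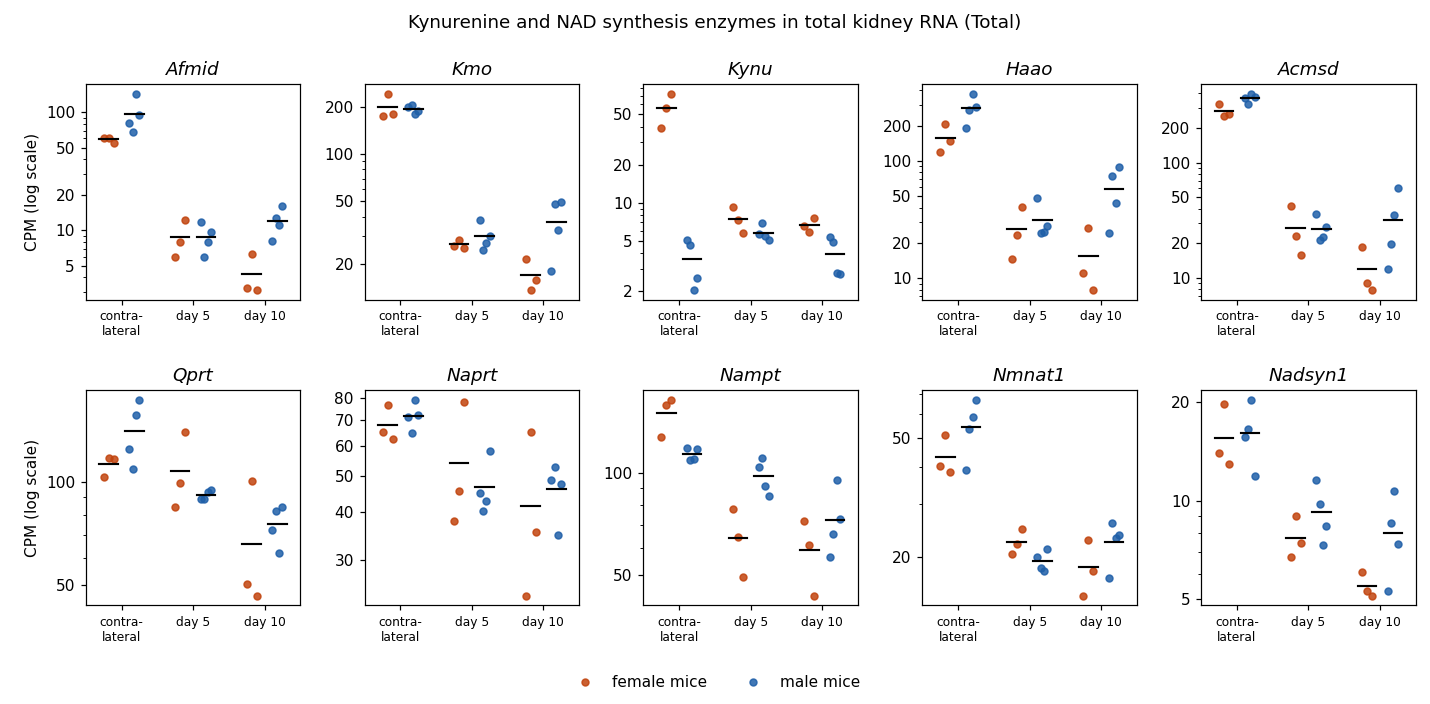
Each panel shows 1 enzyme in Total as CPM on a log scale for contralateral, day 5 and day 10 kidneys, with 1 point per library, female mice (orange) left of male mice (blue) and a bar at each mean. Acmsd has 254 to 393 CPM in contralateral kidneys and 7.84 to 60.9 CPM on day 10, and Nampt no longer overlaps its contralateral range on day 10.

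**Figure D4:**
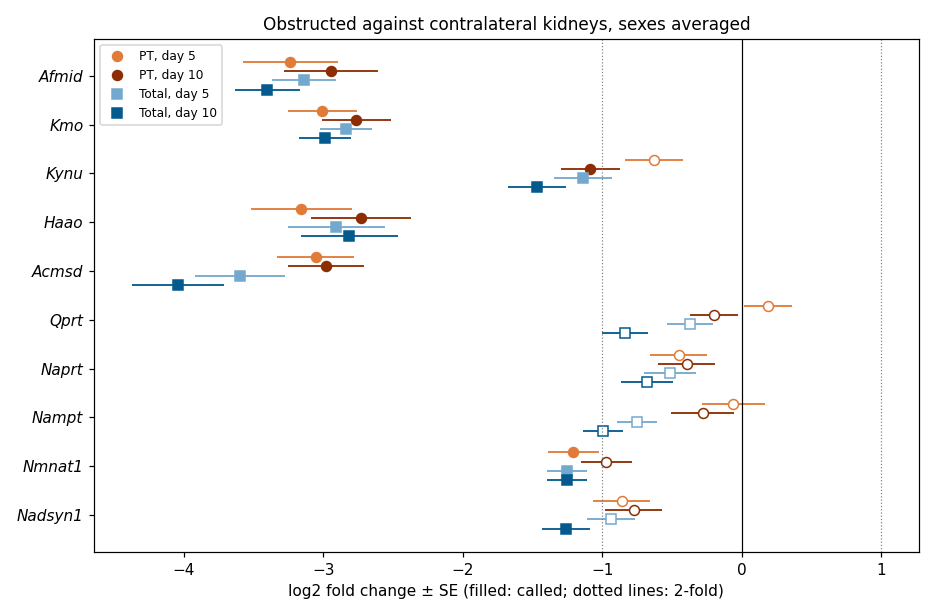
Points give the log2 fold change of each enzyme against contralateral kidneys with its SE, for PT (circles) and Total (squares) on day 5 and day 10, filled where called, with dotted lines at 2-fold. Afmid, Kmo, Haao and Acmsd lie between -2.73 and -4.04, and the other 6 between -1.47 and 0.19.

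Between day 5 and day 10 no member was called in either fraction by edgeR, DESeq2 or limma-voom, against 0.442% of genes in PT and 0.393% in Total with edgeR. Beside 1573 of 14932 genes in PT and 1930 of 16782 in Total, 2 members in PT and 1 in Total had an unadjusted p under 0.05. They were Kynu in PT, with a log2 fold change, day 10 over day 5, of -0.46 ± 0.21 (adjusted p = 0.427), and Qprt in both fractions, with -0.39 ± 0.17 in PT (adjusted p = 0.403) and -0.46 ± 0.17 in Total (adjusted p = 0.236).

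Within a state the question was which enzymes were more abundant in PT than in Total. In contralateral kidneys no member was called by edgeR, which called 1.16% of 17110 genes higher in PT and 24.1% in either direction. An unadjusted p under 0.05 was reached by 9 of 10 members, beside 9052 of the 17110 genes. DESeq2 called 1 member, Afmid, and limma-voom none. Afmid had 84.6, 151 and 271 CPM in PT against 55.0, 68.3 and 142 CPM in Total, a log2 difference of 0.998 ± 0.27 (adjusted p = 0.00280) that lay at the 2-fold limit. Leaving out any of 28 single libraries carried Afmid past the limit, with values from 0.87 to 1.12 over all libraries left out in turn, so its call there turns on the limit itself. Nampt was the only member with a value below 0, at -0.15 ± 0.20 (adjusted p = 0.560).

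In obstructed kidneys some members were called between the fractions. The median log2 difference of the 10, PT over Total, was 0.66, 0.60 and 1.02 in contralateral, day 5 and day 10 kidneys, beside -0.071, 0.011 and 0.046 over all genes tested. On day 5, 3 of 10 were called higher in PT than in Total, against 4.02% of tested genes called higher and 27.8% in either direction. They were Acmsd (1.39 ± 0.29, adjusted p = 0.000152), Qprt (1.26 ± 0.17, adjusted p = 4.40e-08) and Kynu (1.08 ± 0.22, adjusted p = 7.03e-05). Scaled by library size alone, or on the log2(RPKM + 1) scale, Acmsd was the 1 member called, while Qprt was at 0.99 and 0.98 and Kynu at 0.82 and 0.54. Qprt was the only 1 of them whose ranges did not overlap, with 194, 237 and 291 CPM in PT against 84.5, 93.2 and 140 CPM in Total. On day 10, 6 of 10 were called higher in PT, against 7.07% called higher and 30.1% in either direction: Acmsd (1.97 ± 0.30), Afmid (1.49 ± 0.29), Qprt (1.39 ± 0.17), Kmo (1.02 ± 0.21), Haao (1.02 ± 0.35) and Kynu (1.02 ± 0.22), each with an adjusted p of at most 0.0120. Kmo, Haao and Kynu were barely past 2-fold. With the replicate number as a block, which pairs the 2 fractions of contralateral and of day 10 kidneys, 3 were called on day 10, namely Acmsd, Afmid and Qprt. The count on day 10 was also 3 without female PT replicate 2 and without male Total replicate 3 of that day. The 10 proximal tubule markers moved beside these values: 0, 5 and 7 of 10 were higher in PT in contralateral, day 5 and day 10 kidneys, with median log2 differences of 0.62, 1.0 and 1.44. Of the 4 straight proximal tubule markers, 2 were lower in PT in each state and none was higher. Their part was not tested.

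Whether the change with obstruction itself differed between PT and Total was tested as an interaction. No member was called on day 5 or day 10 by edgeR, DESeq2 or limma-voom, against 4.27% and 5.76% of genes with edgeR. An unadjusted p under 0.05 was reached by 2 and 3 members, beside 2494 and 3436 of 17110 genes. On day 10 the differences, PT minus Total, were 1.10 ± 0.41 for Acmsd (adjusted p = 0.0962), 0.76 ± 0.28 for Nampt (adjusted p = 0.0885) and 0.67 ± 0.23 for Qprt (adjusted p = 0.0657). With the replicate block Acmsd was called (1.13, adjusted p = 0.00190), and it was called in the unblocked fit without female day 10 PT replicate 3, female day 10 Total replicate 1 or male day 10 Total replicate 4. The value of Nampt was 0.38 without female day 10 PT replicate 2 (adjusted p = 0.299), and ranged from there to 0.96 over all libraries left out in turn.

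Kynu, the kynureninase that makes hydroxyanthranilate, was the member called between females and males in contralateral kidneys. In contralateral PT it had 67.5, 96.7 and 133 CPM in the 3 female libraries, against 5.50, 5.91, 2.33 and 4.81 CPM in the 4 male libraries. The sexes did not overlap. The log2 difference, female over male, was 4.40 ± 0.31, or 21.1-fold (adjusted p = 7.34e-09). Kynu was the only 1 of the 10 members called between the sexes in contralateral PT, against 4.13% of tested genes. In contralateral Total it had 38.7, 56.2 and 71.9 CPM in females, against 5.13, 4.62, 2.06 and 2.57 CPM in males, a log2 difference of 3.95 ± 0.30 (adjusted p = 6.37e-09), where 2.76% of genes were called and Kynu was again the only member.

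Other members also had sexes that did not overlap in contralateral kidneys, though none of them was called. The share of all genes whose sexes did not overlap was not counted, so these ranges are only a description. Nampt had 124, 159 and 184 CPM in female contralateral PT, against 93.7, 98.1, 81.0 and 81.5 CPM in male PT (0.79 ± 0.31, adjusted p = 0.192). In contralateral Total, Nampt had 127 to 164 CPM in females and 109 to 118 CPM in males (0.40 ± 0.20, adjusted p = 0.333), Afmid 55.0 to 61.1 CPM in females and 68.3 to 142 CPM in males (-0.71 ± 0.30, adjusted p = 0.225), and Acmsd 254 to 321.5 CPM in females and 322.2 to 393 CPM in males (-0.37 ± 0.41, adjusted p = 0.771). At an unadjusted p under 0.05 stood 2 members in each fraction, Kynu and Nampt in PT and Kynu and Afmid in Total. Genes at that level numbered 2277 of 14932 in PT and 2553 of 16782 in Total.

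After obstruction Kynu fell in females but not in males. On day 5 it had 20.8, 21.3 and 19.7 CPM in female PT and 8.68, 10.4, 11.5 and 6.91 CPM in male PT, and on day 10 16.9, 25.7 and 14.8 CPM in female PT and 7.66, 5.56, 3.62 and 5.48 CPM in male PT. In females the log2 fold change over contralateral was -2.25 on day 5 (adjusted p = 1.39e-05) and -2.41 on day 10 (adjusted p = 5.51e-06). In males it was 0.997 on day 5 (adjusted p = 0.00652), with no overlap but just under 2-fold, and 0.24 on day 10 (adjusted p = 0.524). The interaction of sex and day, female minus male, tested this difference directly and was -3.25 ± 0.42 on day 5 (adjusted p = 0.000320) and -2.65 ± 0.42 on day 10 (adjusted p = 0.00404) in PT. In Total the interaction of Kynu was -3.57 ± 0.42 on day 5 (adjusted p = 0.000214) and -3.17 ± 0.42 on day 10 (adjusted p = 0.000708). With the PT libraries split into 10 of low and 11 of high Lars2, the value of Kynu on day 5 was -3.35 in the low ones and -2.66 in the high ones. On day 10 the value was -2.13 and -2.51. The low ones held 1 male contralateral and 1 female day 10 library, and the high ones 1 female contralateral and 1 female day 5 library. The split values therefore rest on single libraries and are given with no test. Kynu was the only member called by edgeR in each of these 4 tests on all libraries, against 0.502% and 0.208% of genes in PT and 0.590% and 0.185% in Total. In Total on day 5 Nampt, at -1.0 ± 0.28 (adjusted p = 0.106), was called as well with DESeq2 (adjusted p = 0.0301) and with the compared groups alone (adjusted p = 0.0440). The averaged values therefore describe neither sex: they were -0.63 ± 0.21 and -1.08 ± 0.21 in PT (adjusted p = 0.0141 and 0.000161) and -1.14 ± 0.21 and -1.47 ± 0.21 in Total on day 5 and day 10. The PT day 10 value of Kynu fell under 2-fold without female contralateral replicate 3 or male day 10 replicate 3, at -0.96 and -1.0, the second just short of the limit.

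In Total, Kynu had 9.27, 7.3 and 5.75 CPM in females and 5.64, 6.95, 5.48 and 5.07 CPM in males on day 5, and 6.59, 5.84 and 7.57 CPM in females against 5.34, 4.89, 2.79 and 2.75 CPM in males on day 10. The sexes overlapped on day 5 and did not on day 10, when the log2 difference of 0.78 ± 0.29 was not called (adjusted p = 0.247). In PT the female level stayed above the male one without overlap on both days. The difference was 1.15 ± 0.29 on day 5 (adjusted p = 0.0658) and 1.75 ± 0.29 on day 10 (adjusted p = 0.00120), and the day 5 value was called without male contralateral replicate 3 or male day 10 replicate 3.

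The summed levels of some marker lists also differed between the sexes. In contralateral PT the summed level of 4 markers of the straight proximal tubule was 63.8 to 68.4 CPM in females and 336 to 562 CPM in males, with 1 of 4 called, and that of 5 injury markers was 3460 to 5670 CPM in females and 466 to 975 CPM in males, with 1 of 5 called. The summed proximal tubule list was 11700 to 13800 CPM in females and 15000 to 16400 CPM in males. Gene by gene, 1 of its 10 markers was called higher in females and none lower, with a median log2 difference of 0.295. Its sum and its median thus went opposite ways. The median was 0.311 for the injury list and -1.64 for the straight proximal tubule list. The part of these markers in the sex difference of Kynu was not tested.

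On day 10 the sexes also differed at other steps. In PT, 3 members were called, Kynu higher and Haao and Afmid lower in females, against 2.22% of genes. Haao had 22.9, 34.5 and 12.4 CPM in female PT, against 56.1, 209, 94.5 and 265 CPM in male PT, without overlap, a log2 difference of -2.79 ± 0.52 (adjusted p = 0.00475). Afmid had 10.7, 12 and 8.74 CPM in female PT, against 15.6, 34.9, 27.0 and 75 CPM in male PT, again without overlap (-1.90 ± 0.47, adjusted p = 0.0341). The call of Afmid was lost without any 1 of the 3 female day 10 libraries or of male day 10 replicates 2 and 4, with values between -2.16 and -1.33 over all libraries left out in turn. With the libraries split by Lars2, Haao was at -3.78 in the high ones and -1.15 in the low ones, and Afmid at -2.52 and -0.85. The low ones held 1 female day 10 library, so their values rest on it. Fitted on the compared groups alone, Haao (adjusted p = 0.0816) and Afmid (adjusted p = 0.167) were not called.

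In Total on day 10, 2 members were called, Kmo and Afmid, both lower in females, against 1.13% of genes. Kmo had 21.3, 13.6 and 15.6 CPM in female Total, against 18.1, 48.0, 32.8 and 49.3 CPM in male Total (-1.13 ± 0.26, adjusted p = 0.0227). Afmid had 3.25, 6.32 and 3.12 CPM in female Total, against 8.08, 12.7, 11 and 16.1 CPM in male Total (-1.48 ± 0.33, adjusted p = 0.0187). Haao (-1.89 ± 0.49, adjusted p = 0.0675) and Acmsd (-1.43 ± 0.44, adjusted p = 0.134) missed the threshold. This count was fragile: it was 0 without female replicate 3 or male replicate 4, 1 without female replicate 1 or male replicate 2, and 4 without male replicate 1, all of day 10 Total. It was also 0 with Lars2 as covariate, where Kmo was at -0.97 (adjusted p = 0.187) and Afmid at -1.45 (adjusted p = 0.110), and 0 with the compared groups alone (adjusted p = 0.324 and 0.122), and 4 with DESeq2. Lars2 itself had 25780 to 30810 CPM in female day 10 Total and 1715 to 24560 CPM in male day 10 Total, without overlap.

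The proximal tubule markers moved with these values. Their summed level on day 10 was 1400 to 2460 CPM in female PT and 2980 to 7610 CPM in male PT, with 3 of 10 markers lower in females, and 557 to 1020 CPM in female Total and 1120 to 3040 CPM in male Total, with 5 of 10 lower. The part of this difference in the values of Haao, Afmid and Kmo was not tested. The interaction of sex and day 10 was not called for Haao in PT (-2.11 ± 0.68, adjusted p = 0.362), Kmo (-1.44 ± 0.46 in PT, adjusted p = 0.354, and -1.18 ± 0.35 in Total, adjusted p = 0.336) or Afmid (-1.35 ± 0.62 in PT, adjusted p = 0.785). The fall against contralateral was called within each sex: Haao was at -3.78 in females and -1.67 in males in PT on day 10 (adjusted p = 2.58e-05 and 0.00542), Afmid at -3.62 and -2.27 (adjusted p = 1.69e-05 and 0.000264), and Acmsd at -3.28 and -2.68 (adjusted p = 3.32e-06 and 4.76e-06). In females 7 members fell in PT on day 10, against 12.9% of genes, and in males 4, against 8.65%. On day 5 the sexes were closer, with no member called between them by edgeR in PT (0.851% of genes) or in Total (0.429%). In PT 1 member had an unadjusted p under 0.05, beside 1553 of 14932 genes, and DESeq2 called Kynu and limma-voom none. In Total 1 member, Nampt, had an unadjusted p under 0.05, beside 2966 of 16782 genes, and DESeq2 and limma-voom called none.

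The other genes of tryptophan and NAD metabolism were taken from a list of 55 grouped by role, of which 48 passed the filter in PT. On day 5, 10 rose and 20 fell, and on day 10, 10 rose and 19 fell, in the fit where 30.6% and 31.7% of all genes were called. In Total, 50 were tested, of which 9 rose and 20 fell on day 5, and 9 rose and 21 fell on day 10. Of all genes in that fit 32.5% and 34.6% were called.

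The entry to the pathway was thinly expressed in these kidneys. Ido2, an indoleamine dioxygenase, was the only 1 of the 3 entry enzymes to pass the filter in PT and fell on both days, with 7.11 ± 1.36 CPM (SD, n = 7) in contralateral PT, 0.539 ± 0.502 CPM on day 5 and 1.09 ± 1.04 CPM on day 10 (-4.13 ± 0.48 and -3.12 ± 0.44, adjusted p = 3.55e-07 and 3.82e-06). Tdo2, the main tryptophan dioxygenase of liver, had 3 reads over the 7 contralateral PT libraries, 8 on day 5 and 3 on day 10. Ido1 had 0, 0 and 1.

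The aminotransferases that turn kynurenine into kynurenic acid fell on day 5, 4 of 4. Aadat was at -2.16 ± 0.23, Got2 at -1.59 ± 0.23, Ccbl1 (Kyat1) at -1.29 ± 0.24 and Ccbl2 (Kyat3) at -1.17 ± 0.25, and on day 10, 3 of 4 fell, with Ccbl2 at -0.80 ± 0.24, under 2-fold. Aldh8a1, which oxidises the product of Acmsd further, fell, with 1558 ± 430 CPM in contralateral PT, 411 ± 99.2 CPM on day 5 and 504 ± 217 CPM on day 10 (-1.95 ± 0.21 and -1.81 ± 0.21).

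Salvage from ribosides showed no call. Nmrk1, the riboside kinase, had 414 ± 174 CPM in contralateral PT, 419 ± 78.2 CPM on day 5 and 373 ± 133 CPM on day 10 (0.02 ± 0.22 and -0.18 ± 0.22, adjusted p = 0.951 and 0.511). Pnp and Nmnat3 were not called either. Nnmt, which methylates nicotinamide for excretion, rose, with 0.115 ± 0.154 CPM in contralateral PT, 4.00 ± 2.14 CPM on day 5 and 6.22 ± 4.02 CPM on day 10 (5.00 ± 0.48 and 5.73 ± 0.48, adjusted p = 2.88e-08 and 3.11e-09). In Total Nnmt had 0.758 ± 0.311 CPM in contralateral kidneys, 10.52 ± 2.12 CPM on day 5 and 15.1 ± 7.46 CPM on day 10, and rose as well. Its mean was thus lower in PT than in Total in each state. Fibroblast markers were also lower in PT than in Total in each state, 8 of 8. In PT 7 of 7 tested fibroblast markers rose on each day. The part of RNA from other cells in the rise of Nnmt in PT was not tested.

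Among 18 tested NAD consumers 5 rose and 2 fell in PT on each day, where 30.6% and 31.7% of all genes were called in either direction. The median log2 fold change of the consumers was 0.08 on each day, so as a set they stood near all genes. The consumers that rose on both days were Parp14 (3.14 ± 0.25 and 3.29 ± 0.25), Bst1 (2.44 ± 0.57 and 4.65 ± 0.56), Cd38 (2.26 ± 0.42 and 2.22 ± 0.42), Parp12 (1.70 ± 0.19 and 1.71 ± 0.19) and Parp9 (1.62 ± 0.19 and 1.85 ± 0.19). Cd38 and Bst1, surface enzymes that split NAD, had low levels, with Cd38 at 0.340 ± 0.181, 1.64 ± 0.543 and 1.69 ± 1.12 CPM and Bst1 at 0.242 ± 0.235, 1.22 ± 0.528 and 5.71 ± 2.84 CPM in contralateral, day 5 and day 10 PT. Both are also expressed by leukocytes, whose macrophage markers rose in the same libraries as given above, and the part of those cells was not tested. Sirt3, the main mitochondrial deacetylase, fell, with 358 ± 95.5 CPM in contralateral PT, 65.5 ± 15.4 CPM on day 5 and 87.8 ± 50.6 CPM on day 10 (-2.47 ± 0.26 and -2.18 ± 0.26). Parp10 fell on day 5 (-1.42 ± 0.23) and Sirt4 on day 10 (-1.07 ± 0.17), while Sirt1 was at -0.14 ± 0.22 and -0.003 ± 0.22 and Parp1 at -0.30 ± 0.14 and -0.24 ± 0.14, neither called.

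Of the NAD kinases and the mitochondrial carrier, Nadk2, the mitochondrial kinase, fell (-1.36 ± 0.12 and -1.54 ± 0.12), while cytosolic Nadk was at -0.17 ± 0.15 and -0.15 ± 0.15 and Slc25a51, which brings NAD into mitochondria, at -0.84 ± 0.22 and -0.76 ± 0.22. Of the pyrophosphatases Nudt13 fell (-1.43 ± 0.24 and -1.12 ± 0.24) and Nudt12 stayed just under 2-fold (-0.97 ± 0.21 and -0.98 ± 0.21).

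Of 8 carriers of tryptophan and nicotinate, 2 rose and 5 fell on each day. Slc6a19, the apical carrier that reclaims neutral amino acids from the filtrate, fell, with 294 ± 93.3 CPM in contralateral PT, 39.4 ± 10.47 CPM on day 5 and 37.2 ± 12.1 CPM on day 10 (-2.94 ± 0.23 and -3.03 ± 0.23). Slc7a8 (-2.16 ± 0.27 and -2.48 ± 0.27), Slc16a10 (-1.19 ± 0.19 and -1.59 ± 0.19) and Slc5a8 (-1.25 ± 0.28 and -1.40 ± 0.28) fell on both days, Slc22a13 on day 5 (-1.29 ± 0.41) and Slc3a2 on day 10 (-1.06 ± 0.17). Slc7a5 rose, with 0.075 ± 0.084 CPM in contralateral PT, 1.28 ± 0.412 CPM on day 5 and 1.58 ± 0.296 CPM on day 10 (4.02 ± 0.50 and 4.31 ± 0.49). Slc12a8 had 1 read over the 7 contralateral PT libraries, 59 on day 5 and 84 on day 10, and was called on both days.

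Of the regulators reported here, 4 fell and 2 rose on each day. Ppara fell by 1.85 and 2.16, Esrra by 1.37 and 1.69, Hnf4a by 1.19 and 1.24 and Ppargc1a by 1.02 and 1.28 on the log2 scale, all factors known for tubular or mitochondrial gene programmes. Cebpb (2.55 ± 0.46 and 1.86 ± 0.45) and the aryl hydrocarbon receptor Ahr (1.5 ± 0.24 and 1.4 ± 0.24), for which kynurenine is a known ligand, rose.

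**Figure D5:**
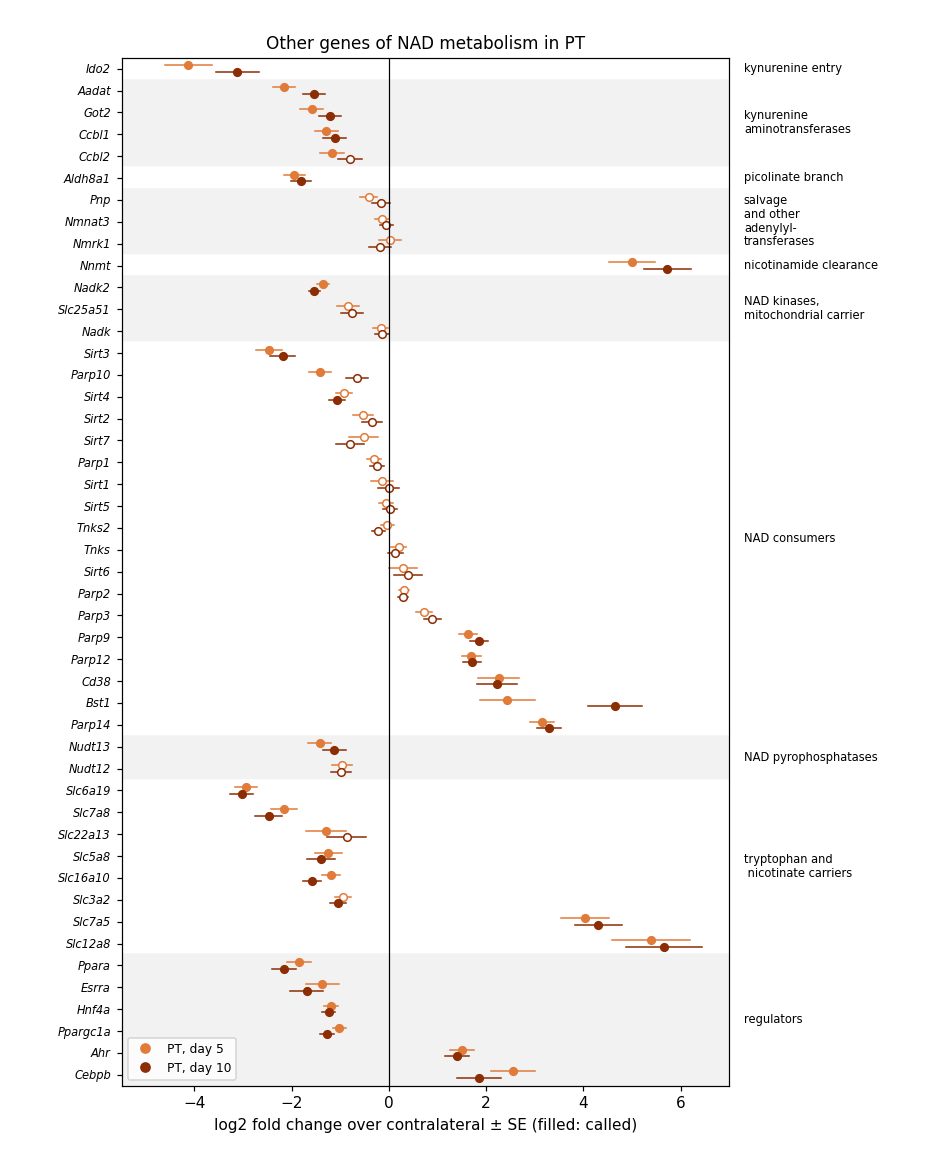
Points give the log2 fold change with its SE in PT on day 5 and day 10 against contralateral kidneys for other pathway genes tested, grouped by role and filled where called. The aminotransferases, most carriers and 4 of the 6 regulators shown lie below 0, the riboside salvage genes near 0, and Nnmt at 5.00 and 5.73 far above.

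The members' patterns over all 42 libraries fell into a tight group and a few loose ones. On log2 CPM, Pearson's r between any pair of Afmid, Kmo, Haao and Acmsd was 0.857 to 0.963, and that of Nmnat1 with them 0.891 to 0.947. Qprt went best with Naprt (0.841) and less with those 4 (0.419 to 0.548), and Kynu had an r of 0.0219 with Haao and of 0.564 with Nampt. These values describe libraries that share states, sexes and depth and carry no test. The gene nearest to each member by the same measure was Grhpr for Afmid (0.988), Mut for Kmo (0.979), Aspdh for Haao (0.978), Aldh4a1 for Acmsd (0.972), Acad8 for Nmnat1 (0.970), Wbp2 for Naprt (0.949), Edf1 for Qprt (0.937), Decr2 for Nadsyn1 (0.932), Ugt1a2 for Kynu (0.906) and Sacm1l for Nampt (0.862).

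Some members share genomic sequence with a neighbour, and since the strand setting of the counting is not given in the sources used here, reads in the shared stretch cannot be told apart. In the GENCODE M21 annotation Kmo overlaps Fh1, which runs the opposite way and encodes fumarate hydratase, over 5255 bases. Fh1 fell less than Kmo, with log2 fold changes of -1.21 and -1.19 in PT and -1.43 and -1.55 in Total on day 5 and day 10. Afmid shares 169 bases with Tk1, which had 14.7, 6.47 and 10.4 CPM on average in contralateral, day 5 and day 10 PT, and Naprt shares 277 bases with Eef1d, which was not called (0.36 and 0.37 in PT). The noncoding or predicted neighbours of Afmid, Acmsd and Nampt averaged at most 0.227 CPM in PT in each state. Nmnat1 overlaps Tmem274, a protein-coding gene that runs the opposite way, over 6172 bases. Tmem274 is not among the symbols counted, so its level could not be looked at.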

How the data were processed

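Gene counts and RPKM values of 42 libraries were used as the authors deposited them. The counts were made by the authors from reads aligned with STAR 2.0.4b and counted with featureCounts 1.4.5 of the Subread package, per the submitters' processing notes, and are whole numbers per gene symbol with no normalization. The RPKM values were deposited in a table of their own and equal the depth-scaled counts divided by a constant length for each gene. The genome build, annotation and strand setting are not given in the sources used here. Every column of both tables was mapped to a sample.

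The members and gene lists were chosen with earlier results of these data known. Counts were tested with edgeR 4.0.16 in R 4.3.3 (filterByExpr, TMM scaling, robust quasi-likelihood F test) in 1 fit of the 6 groups of a fraction, or of all 12 groups for comparisons between fractions, with the sexes averaged by contrast. P-values were adjusted over all tested genes by the Benjamini-Hochberg method, and a call needed an adjusted p under 0.05 and a 2-fold difference. The SE is the log2 fold change divided by the square root of F and is approximate. CPM values are on the TMM-scaled library size, and correlations are of log2 CPM with a prior count of 2. The scripts were tested on simulated data with known changes. Alternatives were DESeq2 1.42.0, limma-voom (limma 3.58.1), limma on log2(RPKM + 1) over genes with a mean of at least 0.5 RPKM, other scalings and filters (none, and 5 CPM in 3 libraries), an adjusted p under 0.01, no minimum fold, the compared groups alone, Lars2 as a covariate or split, a replicate block and each library left out in turn. Figures and sequence matching used Python 3.11.15, pandas 2.3.3 and matplotlib 3.10.9.

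All 10 members were named. Of the other pathway genes, the rule named called genes, up to the 3 largest each way per role, and Tdo2, Ido1, Ido2, Nmrk1 and Nnmt, and the remaining ones named were chosen after their values were seen. For each member the nearest gene by Pearson's r was named. Replicate numbers come from the labels. Deviations from the group means of same-numbered libraries correlated above 0.1 in all 7 pairs for Total day 10 with contralateral (0.153 to 0.357), PT with Total in contralateral kidneys (0.288 to 0.439) and PT with Total on day 10 (0.193 to 0.677), and these were taken as paired. A regulator gene, a motif and a promoter sequence are not reported here.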

Additional observations from a re-analysis of the deposited data

Results flagged for a closer look

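Haao in Total had 48.5 CPM in male day 5 replicate 1, against 24.5, 24.6 and 27.8 CPM in the other male libraries of that day. The gap to the next library made up 0.864 of the group's range, above Dixon's critical value of 0.829 for 4 samples. Of 60 groups of 4 libraries looked at, this was the only one set apart in this way, and chance alone sets apart about 1 in 20.

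Kynu changed differently in females and males, by an interaction test within 1 fit per fraction. The difference of the log2 fold changes, female minus male, was -3.25 on day 5 and -2.65 on day 10 in PT, and -3.57 on day 5 and -3.17 on day 10 in Total.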

How the results depend on the processing

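Falls of Afmid, Kmo, Haao and Acmsd were called in both fractions on both days under every alternative. Depth limits the values of low members: Kynu in contralateral male PT rests on 42 to 110 reads per library. Bulk counts limit statements on single cells. Scaling by library size alone moved the median log2 fold change of all genes by 0.471 and 0.438 in PT and by 0.444 and 0.361 in Total on day 5 and day 10, and by -0.306, -0.258 and -0.262 between PT and Total in contralateral, day 5 and day 10 kidneys. Where a value moved, the cause was not tested.

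Members called, Total day 10 against contralateral, were 4 on the log2(RPKM + 1) scale. PT against Total in contralateral kidneys gave 8 with no minimum fold, 2 with no filter, and 1 each with DESeq2, the compared groups alone and RLE scaling. On day 5 it gave 9 with no minimum fold, and 1 each with library size and RPKM. On day 10 it gave 10 with no minimum fold, 2 on RPKM, and 3 each with the stricter filter, DESeq2, library size, the compared groups alone, RLE, upper-quartile scaling and the replicate block. The share of all genes called under each alternative is not given here. With edgeR, 9052, 9983 and 10786 of 17110 genes had an unadjusted p under 0.05 between PT and Total in contralateral, day 5 and day 10 kidneys. Counts with no minimum fold are to be read beside these. Females against males in PT gave 1 on day 5 (Kynu) with DESeq2, Lars2 as covariate, the Lars2 split and the compared groups alone, and 1 on day 10 with the compared groups alone. In Total on day 10 it gave 0 at an adjusted p under 0.01, with the Lars2 covariate and with the compared groups alone, and 4 with DESeq2. For the PT interaction of sex and day within the high-Lars2 or the low-Lars2 libraries no count is given, because some compared groups held 1 library there. The interaction of sex and day in Total on day 5 gave 2 with DESeq2 and with the compared groups alone. The interaction of fraction and day 10 gave 1 with the replicate block, and the block, fitted where numbers pair and where they do not, moved no other count by over 1.5 times. With each library left out, counts ranged from 0 to 2 and from 3 to 8 for PT against Total in contralateral and day 10 kidneys, 0 to 1 for females against males in PT on day 5, 0 to 4 for the same in Total on day 10, 0 to 1 for the interaction of fraction and day 10, and 1 to 2 for that of sex and day 10 in Total, where Kmo joined without male day 10 replicate 1.

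In the state comparisons these values lay on the other side of 0. Kynu in males alone was at 0.997 and 0.24 in PT and 0.65 and 0.11 in Total on day 5 and day 10. Naprt in PT was at 0.017 (library size) and 0.053 (RPKM) on day 5, and 0.034 and 0.066 on day 10. Nampt in PT on day 5 was at 0.43 (library size), 0.37 (RPKM), 0.29 (males alone), 0.020 (upper quartile), 0.0047 (without female contralateral replicate 3) and 0.039 (without female day 5 replicate 3), the range over libraries left out being -0.14 to 0.039, and on day 10 at 0.19 (library size), 0.036 (RPKM) and 0.084 (low-Lars2 libraries). Qprt was at 0.22 and 0.23 in PT on day 10 and 0.069 and 0.070 in Total on day 5 with library size and RPKM. Kmo in PT on day 10, females against males, was at 0.40 in the low-Lars2 libraries, which held 1 female day 10 library. Each sex alone and the Lars2 split with at least 5 libraries a side were chosen after seeing the data. No paired analysis was possible for comparisons between the sexes because their libraries come from different animals, and the split at the largest Lars2 gap could not be fitted within the side of 1 library.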
